A study of Mus musculus with 26 samples.

Results

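The 4 mature arms of the neighbouring microRNA genes miR-221 and miR-222 (mmu-miR-221-3p, mmu-miR-221-5p, mmu-miR-222-3p and mmu-miR-222-5p, called here without the species prefix) were followed through small RNA libraries of the mouse hippocampal CA1 region. They were taken by name as 4 of the 1915 entries of the deposited count table, and all 4 passed the low-count filter, which left 605 tested entries. There were 26 libraries in 3 groups. The first group held 10 transgenic CamkdeltaC libraries from mice given Vorinostat in their drinking water, the second 7 transgenic CamkdeltaC libraries from mice that drank vehicle, and the third 9 libraries from wild type littermates that drank vehicle. Treatment began at an age of 2 months and lasted 4 weeks, which brought the animals to 3 months of age, and both sexes were used. The groups analysed here include no wild type mice on Vorinostat, so the drug is seen in transgenic mice alone. Vorinostat inhibits histone deacetylases. The transgene's name is that of the delta C form of calcium/calmodulin-dependent protein kinase II; lines of that name are known as heart failure models. The labels do not name the promoter of the transgene or the tissue that makes its product. Nor do they say whether any 2 libraries came from 1 animal, so the p-values measure the spread between libraries.

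A microRNA hairpin is cut into a 3p and a 5p arm, and the arm that is kept in the Argonaute complex pairs with target mRNAs through its seed, bases 2 to 8. miR-221 and miR-222 lie close together on the X chromosome and are generally described as made from a common primary transcript. Their 3p arms share a seed and are known repressors of Cdkn1b, the cell cycle inhibitor p27, and of Kit, a receptor tyrosine kinase. The pair is best known for its roles in proliferating cells and in the endothelium and smooth muscle of vessels, and both microRNAs are also made in neurons.

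The mature sequences below show what the members share, with the seed in capitals and the bases as RNA, 5′ to 3′, from RefSeq (build GRCm38.p6). RefSeq sequences were matched for 3 of the 4 members; miR-222-5p is named only.
miR-221-3p: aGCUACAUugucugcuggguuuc
miR-222-3p: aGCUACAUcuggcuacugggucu
miR-221-5p: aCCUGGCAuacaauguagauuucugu
The 3p arms had the same first 8 bases and were identical at 11 of 23 positions. All differences lay after the seed; counted from 1 at the 5′ end, with the base of miR-221-3p first, they were U9C, G10U, U11G, C12G, U13C, G14U, C15A, U16C, G17U, U20G, U22C and C23U. With 12 such differences, reads of one 3p arm are distinct from reads of the other. Among entries with a RefSeq sequence, the other one with that seed was miR-1928, which had 0 reads in all libraries. Counts with this seed therefore came from miR-221-3p and miR-222-3p, as far as those sequences go. No other such entry had the seed of miR-221-5p.

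Both genes lie on the minus strand of the X chromosome, and the hairpins are given to show where the arms sit, with the mature sequences listed above in capitals.
Mir221: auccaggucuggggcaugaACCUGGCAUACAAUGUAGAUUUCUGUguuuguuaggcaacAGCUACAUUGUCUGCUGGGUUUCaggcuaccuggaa
Mir222: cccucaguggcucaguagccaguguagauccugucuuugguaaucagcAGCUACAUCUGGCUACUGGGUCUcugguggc
Mir222 occupies chrX:19146893-19146971 and lies upstream, and Mir221 occupies chrX:19146294-19146388, 504 bases further along (GRCm38.p6). Neither hairpin overlaps another annotated gene. The nearest one is Gm14636, a processed transcript on the same strand, whose nearer end is 10009 bases from Mir222.

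Library totals ranged from 3.89 to 15.7 M counts (M, 1e6) on Vorinostat, from 6.02 to 24.8 M in transgenic vehicle libraries and from 0.585 to 17.6 M in wild type libraries. Wild type vehicle replicate 1, with 0.585 M counts, and Vorinostat replicate 8, with 3.89 M, stood apart from the others on the first principal component of the tested microRNAs, which was computed without the members and held 58.96% of the variance. Values that moved most without them are also given without them. The column names of the count table give the sequencing lane: L001 held 4 Vorinostat, 3 transgenic vehicle and 6 wild type libraries, and L002 held 6, 4 and 3. The labelled tissue was checked against lists of microRNAs typical of cell types. Neuronal microRNAs, led by miR-128-3p and miR-9-5p, summed to between 317760 and 469700 CPM (counts per 1e6 counts, scaled by the TMM method) on Vorinostat, between 309390 and 392370 CPM in transgenic vehicle and between 196950 and 381430 CPM in wild type libraries. In bulk tissue, fewer cells of a type and less RNA per cell cannot be told apart.

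The 3p arms were among the more abundant microRNAs of CA1, and the 5p arms were scarce. By mean CPM, miR-222-3p ranked 46 and miR-221-3p ranked 58 among the 1389 entries with reads, with 0.187% and 0.142% of all counts. The 5p arms ranked 150 (miR-221-5p, 0.0161% of counts) and 328 (miR-222-5p, 0.00118%). Each arm had reads in 26 of 26 libraries, from 79 to 46673 counts for miR-221-3p, from 1270 to 46427 for miR-222-3p, from 48 to 4748 for miR-221-5p and from 4 to 291 for miR-222-5p. No member had the same counts as another entry of the table. A level of one microRNA set against another is here a ratio of counts, which is not a ratio of molecules.

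For miR-221-3p, the lowest, median and highest libraries held 536, 1244 and 1681 CPM on Vorinostat, 1014, 1212 and 2218 CPM in transgenic vehicle and 164, 1301 and 2264 CPM in wild type libraries. The groups overlapped throughout, and the wild type group held both the lowest and the highest library of the study. The means were 1181 ± 415 CPM (SD, n = 10) on Vorinostat, 1406 ± 457 CPM (n = 7) in transgenic vehicle and 1280 ± 679 CPM (n = 9) in wild type libraries.

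For miR-222-3p, the lowest, median and highest libraries held 1234, 1764 and 2944 CPM on Vorinostat, 979, 1782 and 1907 CPM in transgenic vehicle and 1637, 2120 and 2642 CPM in wild type libraries. All 7 transgenic vehicle libraries lay below the wild type mean, 2 of them below the lowest wild type library, and the Vorinostat libraries spanned nearly the whole range of the study. The means were 1913 ± 591 CPM on Vorinostat, 1645 ± 336 CPM in transgenic vehicle and 2122 ± 328 CPM in wild type libraries. Summed, both 3p arms reached 3093 ± 377 CPM on Vorinostat, 3051 ± 581 CPM in transgenic vehicle and 3403 ± 680 CPM in wild type libraries. Over the 26 libraries the sum ran from 2191 to 4492 CPM, a coefficient of variation of 17.3%, against 40.6% for miR-221-3p and 24.7% for miR-222-3p; within the wild type group the sum varied more (19.97%) than miR-222-3p (15.5%).

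The 5p arms, which are mostly discarded when a hairpin is processed, were nearly level across groups. miR-221-5p had 159 ± 26.2 CPM on Vorinostat, 152 ± 22.99 CPM in transgenic vehicle and 151 ± 35.1 CPM in wild type libraries, with a range of 99.9 to 208 CPM over all libraries. miR-222-5p had 11.7 ± 3.40 CPM on Vorinostat, 11.03 ± 2.97 CPM in transgenic vehicle and 12.2 ± 3.66 CPM in wild type libraries, and ranged from 6.99 to 17.99 CPM. The level of miR-222-5p rests on as few as 4 counts, in wild type vehicle replicate 1.

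**Figure D1:**
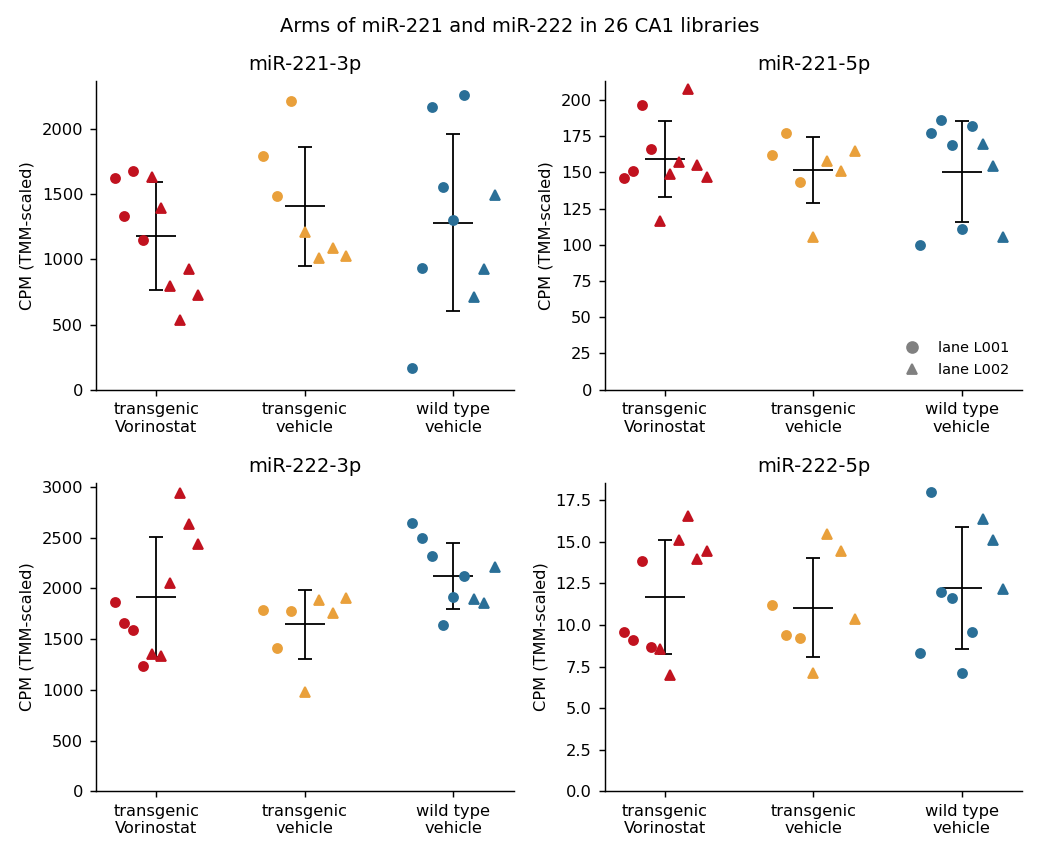
Level of each arm in every library, in CPM on a linear axis from 0 (TMM-scaled counts per 1e6), by group, with circles for lane L001 and triangles for L002; the long bar is the mean and the error bars are 1 SD. All groups overlap for every arm, and the lowest miR-221-3p value, 164 CPM, is wild type vehicle replicate 1.

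Because both hairpins are generally described as coming from one transcript, the ratio of their 3p arms within each library was examined; it does not depend on how libraries are scaled. The ratio of miR-221-3p to miR-222-3p counts had lowest, median and highest values of 0.182, 0.838 and 1.20 on Vorinostat, 0.536, 1.01 and 1.24 in transgenic vehicle and 0.0626, 0.674 and 1.07 in wild type libraries. miR-222-3p was the more abundant 3p arm in 18 of 26 libraries. The lowest ratio belonged to wild type vehicle replicate 1, with 79 counts of miR-221-3p and 1270 of miR-222-3p, and the next lowest to Vorinostat replicate 8.

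On the log2 scale the ratio averaged -0.73 ± 0.95 on Vorinostat, -0.25 ± 0.55 in transgenic vehicle and -1.003 ± 1.25 in wild type libraries. None of the differences passed the test, an exact permutation test over libraries, two-sided, adjusted over 9 ratio tests. The transgenic vehicle and wild type means differed by 0.75 (p = 0.150, adjusted p = 0.620, exact permutation test), with 7 of 7 transgenic vehicle libraries above the wild type mean. Without wild type vehicle replicate 1 that difference was 0.37, and 4 of 7 transgenic vehicle libraries lay above the wild type mean. The Vorinostat and transgenic vehicle means differed by -0.47 (p = 0.255, adjusted p = 0.620, exact permutation test), with 5 of 10 Vorinostat libraries below the transgenic vehicle mean, and Vorinostat and wild type by 0.27 (p = 0.617, adjusted p = 0.694, exact permutation test). Without Vorinostat replicate 8 these were -0.28 and 0.47, and without wild type vehicle replicate 1 the difference between Vorinostat and wild type turned to -0.10. Within lane L001 these differences were 1.14, -0.26 and 0.87, and within L002 they were 0.45, -0.58 and -0.13, so the last changed sign between lanes. The L001 wild type libraries include replicate 1, at -4.00, and their mean was -1.01 ± 1.56 (SD, n = 6). The first and last L001 differences therefore carry that library.

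The ratio differed with the replicate number in the labels, a reading chosen after the values were seen. All 10 libraries numbered 7 to 10, from all groups, had log2 ratios between -2.46 and -0.57, with a median of -1.19. The 11 libraries numbered 3 to 6 lay between -0.56 and 0.32, with a median of 0.07. These ranges barely missed each other, at -0.570 in wild type vehicle replicate 9 and -0.556 in wild type vehicle replicate 5. The numbers were split after the ratios were seen, so the lack of overlap is no evidence of a difference. The 5 libraries numbered 1 or 2 spread from -4.00 to 0.01. A ratio under 0.5 was found in 8 libraries, of which 6 were numbered 7 or higher. The first principal component of the other tested microRNAs also differed with the number. It lay between 4.79 and 14.18 in libraries 3 to 6. In libraries 7 to 10 it lay between -28.05 and 0.31, except for wild type vehicle replicate 9 at 10.62. The pattern with the number was thus not particular to this ratio. Libraries 7 to 10 were all sequenced in lane L002, so number and lane cannot be told apart for them. The other L002 libraries, transgenic vehicle replicate 6 and Vorinostat replicates 5 and 6, had log2 ratios of 0.31, 0.26 and 0.06. What the numbers stand for is not given in the labels. The part of the number or of the lane in the ratio was not tested.

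**Figure D2:**
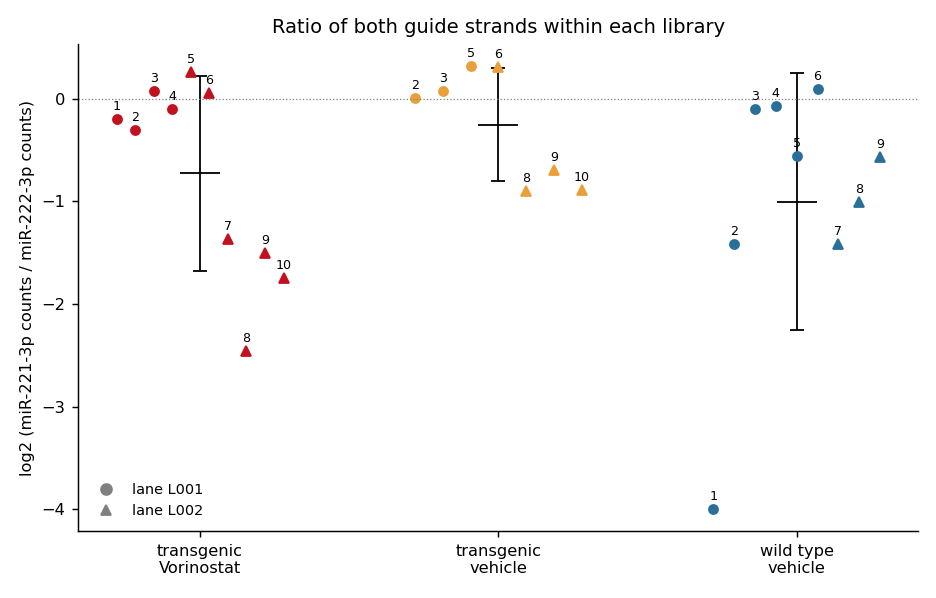
log2 ratio of miR-221-3p to miR-222-3p counts in each library, by group, with the replicate number beside each point, circles for lane L001 and triangles for L002; long bars are means and error bars 1 SD. Points numbered 7 to 10 lie at or below -0.57 in every group, and points numbered 3 to 6 at or above -0.56, a split made after the values were seen.

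Same-numbered transgenic libraries deviated together across the tested microRNAs (r from 0.28 to 0.571), so Vorinostat and vehicle were also set against each other within 7 pairs. That choice was made from these same data. The own number was the best partner in only 3 of 7 pairs. Vorinostat replicates 3, 8, 9 and 10 were most like vehicle replicates 2, 10, 8 and 8. The log2 ratio of the 3p arms was lower on Vorinostat in 6 of 7 pairs. The differences, Vorinostat minus vehicle, were -0.32, 0.01, -0.05, -0.25, -1.56, -0.81 and -0.85 for replicates 2, 3, 5, 6, 8, 9 and 10. Those of replicates 8, 9 and 10 were the widest. The mean difference was -0.55 (SD 0.56, n = 7 pairs, exact sign-flip permutation test, p = 0.03125, adjusted p = 0.141 over 9), which did not pass after adjustment. The smallest p this design allows is 0.015625. Even at that p, 1 ratio alone would not pass over 9 tests, so the adjusted value cannot decide on this difference.

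The 3p arm was the more abundant one of both hairpins in every library, by a wider margin for miR-222. For miR-221 the 3p arm was 2.58, 7.75 and 14.02 times the 5p arm (lowest, median, highest) on Vorinostat, 6.25, 8.38 and 15.5 times in transgenic vehicle and 1.64, 9.24 and 14.15 times in wild type libraries. For miR-222 it was 115, 172 and 194 times on Vorinostat, 121, 151 and 192 times in transgenic vehicle and 116, 181 and 282 times in wild type libraries. The groups overlapped for both hairpins, and wild type vehicle replicate 1 held the lowest ratio for miR-221 and the highest for miR-222. None of the 6 group differences of these arm ratios passed (adjusted p from 0.620 to 0.961, exact permutation tests). The log2 arm ratio of miR-221 differed by 0.33 between transgenic vehicle and wild type, and by 0.07 without wild type vehicle replicate 1. Between Vorinostat and transgenic vehicle it differed by -0.35, and by -0.19 without Vorinostat replicate 8. Within the 7 same-numbered pairs, the log2 arm ratio of miR-221 was lower on Vorinostat in 6 of 7, by a mean of -0.38 (SD 0.43, exact sign-flip permutation test, p = 0.03125, adjusted p = 0.141). The limit of 7 pairs on the adjusted value, given above, holds here too.

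The pair's 3p arms were compared with other neighbouring hairpins, a comparison chosen after the values were seen and given as a description. Among 15 pairs of adjacent hairpins on one strand, at most 10000 bases apart and with at least 100 CPM each, the SD of the log2 ratio over 24 libraries (leaving out both libraries that stood apart) ran from 0.191 to 0.686, with a median of 0.414. The SD of the ratio of miR-221-3p to miR-222-3p was 0.649, the second highest, after miR-433-3p and miR-127-3p. Mature names with several loci were left out, so some hairpins stand by another arm, such as let-7c-2-3p and miR-24-2-5p. The pairs are not independent, since miR-127-3p, miR-134-5p and miR-668-3p are shared between pairs. The arm ratios were less spread than the median of 75 hairpins, 0.593, at SD 0.541 for miR-221 and 0.319 for miR-222.

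Over these 24 libraries the log2 CPM of miR-221-3p and miR-222-3p were weakly and negatively related (Pearson r = -0.20, and -0.43 over all 26), as a description. miR-221-3p was nearly unrelated to its own 5p arm (r = 0.03), whereas miR-222-3p and miR-222-5p varied together (r = 0.64). These values share the libraries' scaling and depth, and no p is given.

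The comparison of transgenic vehicle with wild type libraries asked what the transgene changed in CA1. By edgeR, 0 of the 4 arms passed, against a background of 0% of the 605 tested entries called (13 entries, 2.15%, had an unadjusted p under 0.05, 18 by DESeq2 and 7 by limma voom). The member nearest to a difference was miR-222-3p, with a log2 difference of -0.37 (SE 0.18, 95% interval -0.74 to 0.01, unadjusted p = 0.0540, adjusted p = 0.980 by edgeR). All 7 transgenic vehicle libraries were below the wild type mean, and the entry ranked 14 of 605 by p. The edgeR log2 difference of miR-221-3p was 0.13 (SE 0.33, interval -0.55 to 0.82). Its direction turned without wild type vehicle replicate 1 (-0.04) or without transgenic vehicle replicate 5 (-0.02). The 5p arms had log2 differences of 0.01 (miR-221-5p, SE 0.16) and -0.17 (miR-222-5p, SE 0.22), with adjusted p = 0.994 and 0.980 by edgeR.

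The comparison of Vorinostat with vehicle in transgenic mice asked what the drug changed. Again 0 of the 4 arms passed by edgeR, against 0% of 605 tested entries called (21 entries, 3.47%, unadjusted; 26 by DESeq2 and 16 by limma voom). The edgeR log2 difference was -0.25 for miR-221-3p (SE 0.33, 95% interval -0.92 to 0.42) and 0.22 for miR-222-3p (SE 0.18, interval -0.15 to 0.58), each with an adjusted p of 0.836. Leaving out 1 library at a time, they ran from -0.38 to -0.11 (without transgenic vehicle replicate 5) for miR-221-3p and from 0.07 (without transgenic vehicle replicate 6) to 0.27 for miR-222-3p. Of the 10 Vorinostat libraries, 4 lay below the lowest transgenic vehicle library for miR-221-3p and 4 lay above the highest one for miR-222-3p. In both cases these were the Vorinostat libraries numbered 7 to 10. The log2 differences of the 5p arms were 0.07 and 0.07, with adjusted p = 0.924 for miR-221-5p and 0.987 for miR-222-5p by edgeR.

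With the replicate number as a block (7 pairs), 5 of 567 tested microRNAs passed by edgeR, 0.882% of them, and none was a member. They were miR-129-5p, miR-182-5p and miR-379-5p, higher on Vorinostat by 0.68, 1.34 and 0.56 on the log2 scale, and miR-29c-3p and miR-339-5p, with differences of -0.77 and -1.19, all at an adjusted p of 0.0420 and named after their values were seen. In that fit miR-221-3p differed by -0.31 (SE 0.14, 95% interval -0.60 to -0.01, unadjusted p = 0.0435, adjusted p = 0.173 by edgeR) and miR-222-3p by 0.24 (SE 0.13, adjusted p = 0.258). Both 5p arms had an adjusted p of 0.746 by edgeR. The calls of this fit rest on the pairing by number, with the limit given above.

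Vorinostat libraries were also set against wild type vehicle libraries, which differ in both genotype and drug. Here too 0 of the 4 arms passed by edgeR, against 0% of 605 tested entries called (19 entries, 3.14%, unadjusted; 29 by DESeq2 and 23 by limma voom). The log2 differences were -0.12 for miR-221-3p (SE 0.31), 0.07 for miR-221-5p (SE 0.15), -0.15 for miR-222-3p (SE 0.17) and -0.10 for miR-222-5p (SE 0.20), each with an adjusted p of 0.99975 by edgeR. The intervals ended at -0.74 and 0.51 for miR-221-3p and at -0.49 and 0.19 for miR-222-3p. The 3 comparisons share groups and are not independent of each other.

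**Figure D3:**
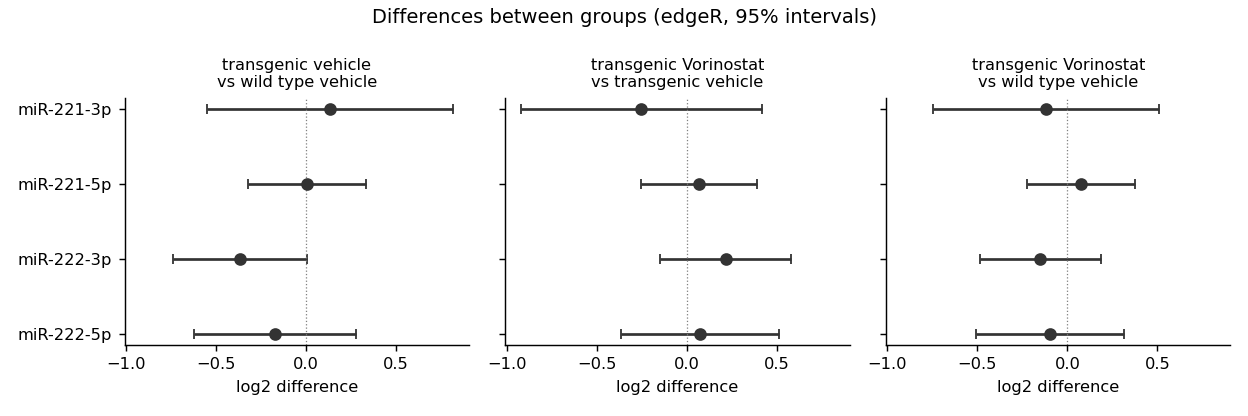
edgeR log2 difference of each arm in the 3 comparisons (points) with 95% intervals (lines), the group named first minus the group named second; the dotted line marks 0. Every interval includes 0, and that of miR-222-3p between transgenic vehicle and wild type, -0.74 to 0.01, comes nearest to leaving it out.

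The 3p arms ran in opposite directions along the main axis of variation between libraries. Over 24 libraries, log2 CPM correlated with the first principal component of the other tested microRNAs at r = 0.87 for miR-221-3p, -0.54 for miR-222-3p, -0.70 for miR-222-5p and -0.22 for miR-221-5p. Over all 26 libraries these were 0.94, -0.545, -0.15 and 0.21, so the sign of miR-221-5p turned with the 2 libraries that stood apart. Each is a description over libraries that share scaling and depth. The component overlapped between groups: it had lowest, median and highest values of -28.1, 6.24 and 12.7 on Vorinostat, -1.76, 9.86 and 14.18 in transgenic vehicle and -86.2, 8.84 and 11.7 in wild type libraries.

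Library depth moved with miR-221-3p as well. Its log2 CPM correlated with the log of the library total at Pearson r = 0.76 (permutation p = 0.00101, adjusted p = 0.00151 over 3 relations) and Spearman rho = 0.40 (adjusted permutation p = 0.0932), within lanes at r = 0.84 (L001) and 0.55 (L002). Without both libraries that stood apart, which were farthest from the median in depth, r was 0.21, so the relation rests on those libraries. For miR-222-3p, r was -0.36 (permutation p = 0.0712, adjusted p = 0.0712), rho -0.35 (adjusted permutation p = 0.0932), within lanes -0.60 and -0.12, and -0.03 without those libraries. For the log2 ratio of the 3p arms, r was 0.73 (permutation p = 0.0009, adjusted p = 0.00151), rho 0.34 (adjusted permutation p = 0.0932), within lanes 0.89 and 0.38, and 0.17 without them.

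**Figure D4:**
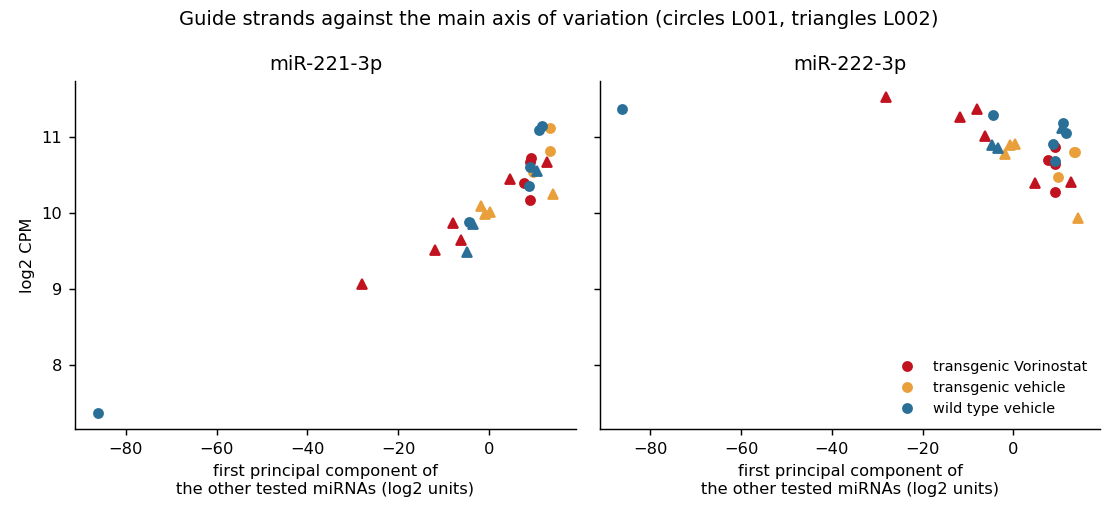
log2 CPM of miR-221-3p (left) and miR-222-3p (right) against the first principal component of the other tested microRNAs, 1 point per library coloured by group, circles for L001 and triangles for L002. miR-221-3p climbs along the component (r = 0.87 over 24 libraries) while miR-222-3p declines (r = -0.54); wild type vehicle replicate 1 is the point at -86.2.

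The microRNAs whose levels were most like each 3p arm differed. Among 336 other entries of at least 10 CPM, Pearson r with miR-221-3p over 24 libraries was highest for miR-421-3p (0.93), miR-137-3p, a microRNA of neurons (0.91), miR-708-5p (0.90), miR-107-3p (0.90) and miR-487b-3p (0.90). For miR-222-3p it was highest for miR-344d-3p (0.74), miR-344c-3p (0.73), miR-676-3p (0.72), miR-92b-5p (0.68) and miR-3059-5p (0.67). Over all 26 libraries r with miR-221-3p was 0.91 to 0.97 for the first 5, whereas r with miR-222-3p was 0.615, 0.26, 0.77, 0.75 and 0.51 for the others in that order. The lists had no entry in common, and none of those with a RefSeq entry had the seed of the pair. The hairpins of miR-421-3p and miR-676-3p lie on the X chromosome, like the pair itself. In the authors' deposited table of co-expression modules, the arms also fell apart: miR-221-3p was in the turquoise module (404 of 674 microRNAs, membership score 0.966), miR-221-5p in the brown one (34 microRNAs, 0.864) and both arms of miR-222 in the blue one (197 microRNAs, 0.509 for miR-222-3p and 0.398 for miR-222-5p). The membership score of miR-221-3p in the blue module was -0.888 in that table.

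MicroRNAs studied beside the pair in cell growth and vessels, such as miR-17 and its cluster, miR-126, miR-143 and miR-145, did not pass the test in any comparison. Of 25 listed, 24 were in the table and 23 were tested, and 0 passed in any comparison by edgeR. Between transgenic vehicle and wild type, 19 of the 23 had a positive log2 difference, with a median of 0.22, against 329 of all 605 tested and a median of 0.03. Between Vorinostat and transgenic vehicle 10 of the 23 were positive, with a median of -0.18, against 298 of 605 and -0.01. Between Vorinostat and wild type 13 were positive, with a median of 0.08, against 320 of 605 and 0.01. The members of the list did not follow the pair as a block: over 24 libraries r with miR-221-3p was 0.89 for miR-20a-5p and 0.87 for miR-17-5p, both of the miR-17 cluster, but -0.78 for miR-126a-3p, the endothelial microRNA, and -0.86 for miR-143-3p of smooth muscle, examples chosen after their values were seen. Their r with miR-222-3p was -0.54, -0.56, 0.36 and 0.22. The miR-17 cluster was not uniform either: r with miR-221-3p was 0.70 for its member miR-19b-3p but -0.66 for miR-92a-3p, its most abundant listed member. The other arms of the vessel hairpins had a positive r with miR-221-3p, 0.84 for miR-126a-5p and 0.45 for miR-143-5p, and for miR-145a it was 0.57 (3p arm) and -0.05 (5p arm). Over the 23 tested, r with miR-221-3p was positive for 16 and negative for 7.

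The vessel wall list itself (miR-126a, miR-143 and miR-145a, both arms of each) had 6 of 6 members tested and 0 passing in any comparison by edgeR. Its summed level was 6213 to 22691 CPM on Vorinostat, 6195 to 11562 CPM in transgenic vehicle and 6402 to 12045 CPM in wild type libraries. Its median log2 difference was 0.26 between transgenic vehicle and wild type, -0.13 between Vorinostat and transgenic vehicle and 0.23 between Vorinostat and wild type. Of 153 other X-linked microRNAs in the table (144 by their own RefSeq locus and 9 by the hairpin of their name), 52 were tested and 0 passed by edgeR, with medians of 0.04, -0.05 and -0.02 in these comparisons.

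Lists for the other cell types a CA1 dissection may hold gave 0 passing members in every comparison by edgeR. Blood and leukocyte microRNAs, led by miR-486a-5p and miR-451a, had 6 of 7 tested, and median log2 differences of 0.01, -0.08 and -0.04 in the order given above. Those of choroid plexus and ependyma, led by miR-204-5p and miR-200b-3p, had 6 of 7 tested (0.26, 0.01 and 0.04), and those of neurons 6 of 6 (0.07, 0.07 and 0.10). Oligodendrocyte microRNAs, led by miR-219a-2-3p and miR-338-3p, had 3 of 3 tested (0.53, -0.49 and 0.08), and those of astrocytes and glial progenitors, led by miR-29a-3p and miR-21a-5p, 3 of 3 (0.33, -0.36 and -0.02). No listed marker of these cell types was at 0 in all 26 libraries. Their part in the values of the pair was not tested.

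The authors also deposited normalized values. How they were normalized is not stated in the labels or the table; they are read as log2 values because their slope on the log2 CPM of 165 microRNAs of at least 100 CPM was 0.951. On that scale miR-221-3p lay above miR-222-3p in 25 of 26 libraries, whereas its counts were the higher ones in 8 of 26. The lowest, median and highest authors' values of miR-221-3p were 11.17, 11.98 and 12.90 on Vorinostat, 12.62, 13.04 and 13.60 in transgenic vehicle and 9.93, 12.26 and 13.49 in wild type libraries. The transgenic vehicle libraries were thus mostly the highest, with some overlap with both other groups. The authors' values of miR-221-3p lay above the log2 CPM of the same library by a mean of 1.86 ± 0.54 on Vorinostat. That distance was 2.65 ± 0.38 in transgenic vehicle and 2.12 ± 0.39 in wild type libraries, so for this arm it was unequal between groups. For miR-222-3p it ran from -0.80 to 0.06 on Vorinostat, -0.66 to -0.05 in transgenic vehicle and -0.54 to -0.09 in wild type libraries.

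A limma test on these values, added after the data were seen, gave calls that the counts did not. Between transgenic vehicle and wild type, 3 of the 4 arms passed, against 54.5% of 674 microRNAs called. The limma differences were 0.90 for miR-221-3p (SE 0.32, adjusted p = 0.0206), -0.40 for miR-222-3p (SE 0.15, adjusted p = 0.0305) and -0.40 for miR-222-5p (SE 0.17, adjusted p = 0.0463). Between Vorinostat and transgenic vehicle, 1 arm passed against 53.7% called, miR-221-3p with a limma difference of -1.08 (SE 0.31, adjusted p = 0.00663). Between Vorinostat and wild type, 0 arms passed against 0.89% called. Most microRNAs were thus called in the first comparisons on this scale, against 0% by edgeR on the counts.

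Some of these limma calls depended on the libraries included, and the calls differed between lanes. Leaving out 1 library at a time, the genotype difference of miR-221-3p ran from 0.62 (without wild type vehicle replicate 1) to 1.06 and was no longer called without transgenic vehicle replicate 3 (adjusted p = 0.0512 by limma). The genotype call of miR-222-3p was lost in 5 of 16 such fits and that of miR-222-5p in 11 of 16. The Vorinostat difference of miR-221-3p stayed between -1.18 and -0.99 and was called in each of 17 such fits. Within lane L001, with 4 Vorinostat, 3 transgenic vehicle and 6 wild type libraries, no microRNA passed in these comparisons by limma. There miR-221-3p differed by 1.12 and -1.07 (adjusted p = 0.172 and 0.328 by limma). Within L002, with 6, 4 and 3 libraries, miR-221-3p passed in both (0.79 and -1.06, adjusted p = 0.0368 and 0.00161 by limma). Its Vorinostat difference was thus of similar size in both lanes, though called in L002 only.

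**Figure D5:**
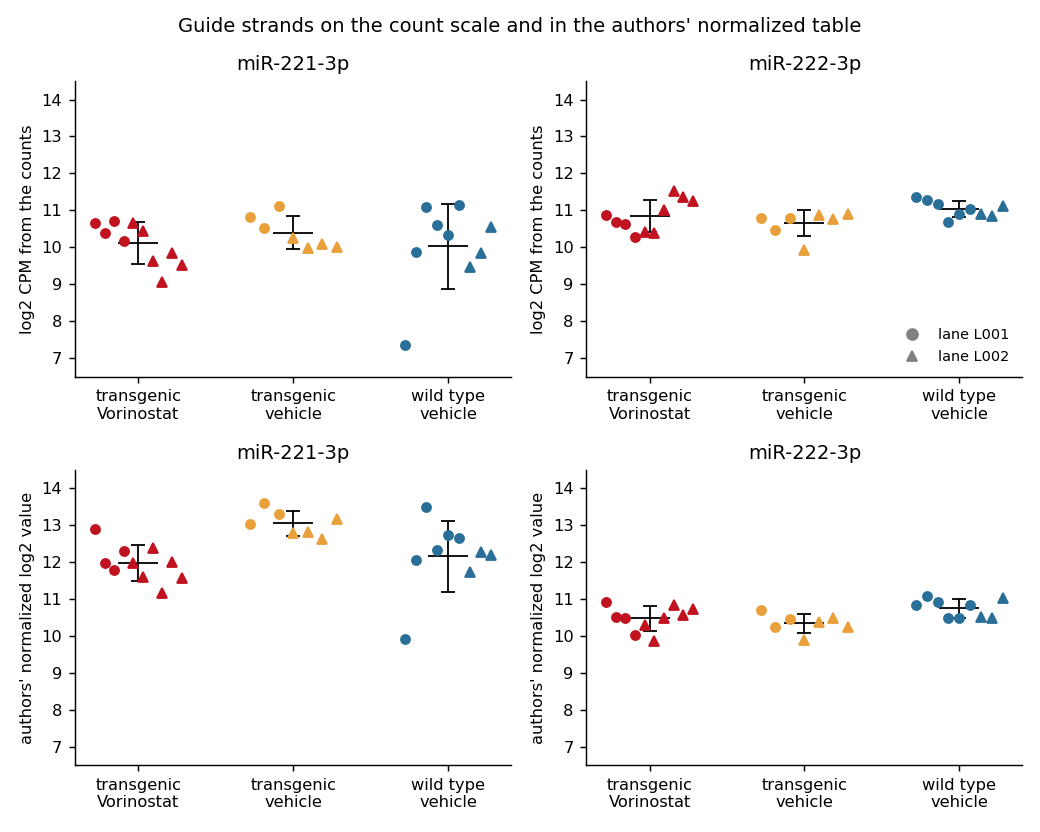
log2 level of miR-221-3p (left) and miR-222-3p (right) in every library from the counts (top, log2 CPM) and in the authors' normalized values (bottom, log2), by group, circles for L001 and triangles for L002; long bars are means and error bars 1 SD. For miR-221-3p the mean of the authors' values is 11.97 on Vorinostat against 13.05 in transgenic vehicle; in the counts the log2 difference was -0.25 and did not pass.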

How the data were processed

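Small RNA libraries came from the TruSeq kit and were read on a HiSeq2000, single reads of 50 bp, per the labels' protocols. FastQC 0.11.5 and the mm10 build are credited to the submitters' processing notes; the aligner, the annotation and the counting settings are not stated there. The count table holds unnormalized counts for each mature miRNA, as deposited by the authors. They also deposited normalized log2 values and, for each miRNA, membership scores in co-expression modules, both by methods that are not stated.

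From the counts, edgeR 4.0.16 (R 4.3.3) fitted all 26 libraries with TMM factors after filterByExpr (minimum count 10, total 15). Its quasi-likelihood test was two-sided and adjusted by Benjamini-Hochberg over 605 entries, with a threshold of 0.05. Each SE is the size of the log2 difference over the root of its F statistic. CPM are TMM-scaled, with a prior count of 0.5 on the log2 scale. Ratios are of counts plus 0.5 within a library, tested by exact permutation over libraries. Scripts were tested on simulated data. DESeq2 1.42.0 and limma 3.58.1 served as alternatives, beside other scalings, filters, sets of libraries and lanes. Depth limits the 5p arms most.

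The replicate numbers come from the sample titles. Same-numbered Vorinostat and transgenic vehicle libraries deviated together (7 of 7 pairs, r from 0.28 to 0.571, each over the threshold of 0.1), so the block was used there. The own number was the best partner in 3 of these 7 pairs. In the other comparisons 4 of 6 and 5 of 9 pairs were over that threshold, and there the block served only as an alternative.

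The 4 members were given by name. Also named are the 5 entries most correlated with each 3p arm and the most abundant 2 of each cell type list; others are said to be chosen after their values were seen. Members and lists were chosen with earlier results of these data known.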

Additional observations from a re-analysis of the deposited data

Results flagged for a closer look

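In 21 groups of values examined for a library far from the rest of its group, 3 stood out, where chance gives about 1 in 20 in independent groups. These groups share libraries and arms, so they are not independent. Wild type vehicle replicate 1 had the lowest log2 CPM of miR-221-3p among 9 libraries, 7.36, and the lowest log2 ratio of miR-221-3p to miR-222-3p, -4.00. Both values rest on the same 79 counts of miR-221-3p. This is also the library with 0.585 M counts. Transgenic vehicle replicate 6 had the lowest log2 CPM of miR-221-5p among 7 libraries, 6.72, and held 6.02 M counts, the lowest total of its group. It also held the lowest miR-222-3p level of the study, 979 CPM. The part of depth in these values was not tested beyond the correlations given with the results.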

How the results depend on the processing

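By edgeR on the counts, no arm passed in any comparison under any scaling, filter, lane or set of libraries tried, nor with the replicate block. DESeq2 and limma voom were each run on all 26 libraries with the main filter only, and no arm passed there either. The log2 difference of miR-222-3p between transgenic vehicle and wild type kept its sign in 30 alternatives (-0.41 to -0.24 leaving out single libraries, -0.50 to -0.29 otherwise) and had an unadjusted p under 0.05 in 11; the limma test on the authors' values is 1 of each, and on the counts these were 29 and 10. Small differences turned sign, and the cause was not tested. For miR-221-5p, the log2 difference between transgenic vehicle and wild type was -0.088 with upper quartile scaling, -0.032 with a mean of at least 10 CPM, -0.064 without both libraries that stood apart, and -0.161 in the authors' values (limma, added after seeing the data). Between Vorinostat and transgenic vehicle it was -0.0051 with RLE scaling, -0.073 with library totals, -0.0068 with DESeq2 and -0.0068 in lane L001. Between Vorinostat and wild type it was -0.030 with library totals, -0.0059 with DESeq2, -0.062 without both libraries and -0.090 in the authors' values. For miR-222-5p between Vorinostat and transgenic vehicle it was -0.071 with library totals, -0.0069 with DESeq2 and -0.0037 without both libraries. For miR-221-3p, it was -0.038 without both libraries (transgenic vehicle and wild type) and 0.019 with lane as a covariate (Vorinostat and wild type). For miR-222-3p, it was -0.094 in L001 (Vorinostat and transgenic vehicle) and 0.072 in L002 (Vorinostat and wild type). In the authors' values the counts of passing microRNAs were 367, 362 and 6, and 3 differences passed between transgenic vehicle and wild type, 0.897 for miR-221-3p and -0.399 for each arm of miR-222, with 1 between Vorinostat and transgenic vehicle, -1.079 for miR-221-3p. Library totals shifted the median of all tested entries between Vorinostat and transgenic vehicle to -0.14, and the authors' values to -0.24.

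The replicate block raised the passing microRNAs between Vorinostat and transgenic vehicle to 5 of 567; there the best partner was the own number in 3 of 7 pairs. In the other comparisons the numbers paired only part of the libraries (4 of 6 and 5 of 9 pairs over 0.1), and with the block 0 passed. There the best partner was the own number for 0 and 3. The block gave log2 differences of -0.014 (miR-221-3p) and -0.012 (miR-221-5p) between transgenic vehicle and wild type, and 0.0075 (miR-221-3p) between Vorinostat and wild type, with 0.036 for the log2 arm ratio of miR-221. It changed no other call.

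Log2 ratios between Vorinostat and wild type were 0.288 for the miR-221 arms in L001, and in L002 -0.129 for miR-221-3p to miR-222-3p and 0.296 for the miR-222 arms. The miR-222 arm ratio was -0.106 between Vorinostat and transgenic vehicle in L001 and 0.014 between transgenic vehicle and wild type in L002.

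Leaving out single libraries, log2 differences between transgenic vehicle and wild type ran from -0.039 to 0.269 for miR-221-3p and from -0.065 to 0.091 for miR-221-5p. Between Vorinostat and transgenic vehicle they ran from -0.066 to 0.111 for miR-221-5p and from -0.064 to 0.138 for miR-222-5p. Between Vorinostat and wild type they ran from -0.028 to 0.117 for miR-221-5p, from -0.100 to 0.467 for the log2 ratio of the 3p arms and from -0.285 to 0.141 for that of the miR-221 arms. Depth limits miR-222-5p most, at 4 counts in the shallowest library.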
